A study of Homo sapiens with 6 samples.

Results

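The genes described here are GNE and 9 others that supply cells with sialic acid: NANS, NANP, CMAS, SLC35A1, SLC17A5, NPL, RENBP, NAGK and SIAE. Their transcripts were read on arrays of Capan-1, a cell line from a human pancreatic carcinoma, after small interfering RNA (siRNA) against GNE. Every probe set that the platform annotation assigned to one of these genes and to no other was taken, which gave 19 probe sets for the 10 genes among 54675 on the array. Of these, 10 probe sets, for 8 genes, had a mean log2 value above 4 over the arrays and were tested with 22085 probe sets in all. The other 9, which include every probe set of NPL and RENBP, stayed under that limit.

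Sialic acids are acidic sugars that end many glycan chains on cell surface proteins and lipids. GNE starts their synthesis: its epimerase activity turns UDP-GlcNAc into ManNAc and its kinase activity phosphorylates ManNAc. NANS then joins the phosphorylated ManNAc with phosphoenolpyruvate, NANP removes the phosphate, CMAS couples the free sialic acid to CMP in the nucleus, and SLC35A1 carries CMP-sialic acid into the Golgi for the sialyltransferases. A second supply comes from broken-down glycans: SLC17A5 exports free sialic acid from lysosomes, SIAE strips O-acetyl groups, NPL splits sialic acid into ManNAc and pyruvate, RENBP interconverts ManNAc and GlcNAc, and NAGK phosphorylates GlcNAc.

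The siGNE group was 3 arrays of Capan-1 cells transfected with siRNA against GNE, and the control group was 3 arrays of cells transfected with the siRNA that the labels call allStar. All cells grew in medium with 15% fetal calf serum, received siRNA in TransMessenger reagent 2 times, 48 h apart, and were collected 72 h after the later dose. The labels number the arrays V1 to V3 in each group, and a control and a siGNE array with 1 number form a pair below. Deviations from the group means correlated at 0.58, 0.71 and 0.83 within the pairs, so a limma fit with the number as a replicate block is given beside the fit without it wherever it changes a call. The siRNA sequences are not named in the sources used here, nor is it stated that the arrays stem from independent cultures, so p-values measure only the spread between these arrays, which may be technical. All results come from 1 cell line. Values are log2 expression made by the authors with GCRMA, which subtracts a modelled background. Array medians lay between 2.96 and 3.02, so values near 3 are close to background.

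All 10 ductal and epithelial markers measured were above 4 on average (KRT19 at 15.34, the highest), and their mean level per array ran from 12.84 to 13.05 in control and from 12.97 to 13.18 in siGNE cells. None of the 4 endothelial, 4 immune and 6 acinar or islet markers measured was above 4. Of 6 fibroblast markers only COL1A1 was, at 8.03 in control and 8.74 in siGNE cells, and it rose with the replicate block (limma adjusted p = 0.0441) but not without it (0.512). The epithelial marker CEACAM5 was likewise higher by 0.56 (limma adjusted p = 0.0491 with the block and 0.423 without). It alone of the 10 epithelial markers passed with the block. In all 3 pairs 6 of the 10 were higher and 1 was lower (MUC1, -0.17), and their median difference was 0.09. For COL1A1 and CEACAM5 the groups overlapped, and 9.49% of all tested probe sets passed with the block. Their part in the results below was not tested.

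GNE itself was lower in all siGNE arrays. The control arrays read 11.12, 11.47 and 10.86 for numbers 1, 2 and 3, and the siGNE arrays read 8.39, 9.86 and 9.57. The highest siGNE value lay below the lowest control value, and the siGNE array of number 1 was the lowest of all by more than 1 log2 unit. Group means were 11.15 ± 0.30 for control against 9.27 ± 0.78 for siGNE (SD, n = 3), a difference of -1.88 with a 95% confidence interval from -2.84 to -0.91 in limma. On the linear scale the siGNE cells held 27.2% of the control level, and the pairs stood at 15.0%, 32.8% and 40.9% of their own controls. In RNA from whole cultures, fewer expressing cells and less RNA per cell cannot be told apart. The limma adjusted p over all tested probe sets was 0.131 without the block and 0.0348 with it (interval from -2.63 to -1.12). Exchanging the group labels in an exact permutation test, two-sided, gave p = 0.1, which 3 against 3 arrays cannot go below, and exact sign flips over the 3 pairs gave p = 0.25, again the smallest possible.

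Only 10 of the 22085 tested probe sets fell further than GNE did. All 10 also passed with the replicate block, where 5.35% of all tested probe sets passed as lower. The size of their fall in these data picked them, so that count is no separate support. The fall of GNE with the block did not pass when both arrays of number 1, 2 or 3 were left out, with limma adjusted p of 0.0665, 0.127 and 0.144 on 4 arrays. It also did not pass when all probe sets were tested with the block and no filter (limma adjusted p = 0.265), a fit in which 0 probe sets passed and 7167 had an unadjusted p under 0.05.

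**Figure D1:**
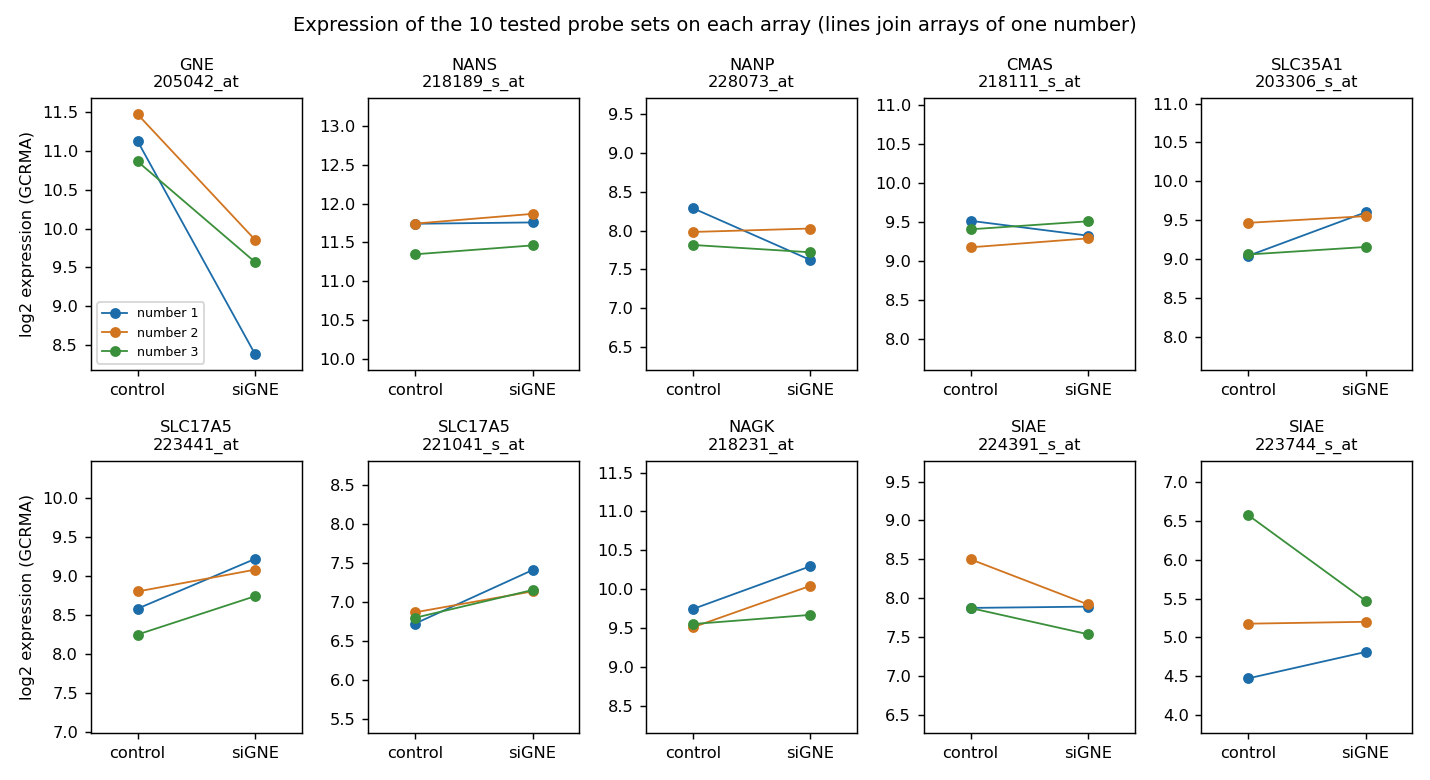
Log2 expression (vertical axis, GCRMA values) of the 10 tested probe sets in control and siGNE cells; each point is 1 array, lines join arrays of the same number, and every panel spans the same height in log2 units. GNE drops from 11.15 to 9.27 on average with no overlap between the groups, while the SLC17A5 and NAGK lines all slope upward by 0.69 or less.

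After GNE, the synthetic branch was measured by NANS, NANP and CMAS, and none of them passed in limma with or without the block. NANS, the sialic acid phosphate synthase, read 11.74, 11.74 and 11.35 in control and 11.76, 11.87 and 11.46 in siGNE cells. The groups overlapped almost completely, and the arrays of number 3 were the lowest in each. Its difference was 0.085, and the 95% interval from -0.34 to 0.51 leaves room for a change between 0.79-fold and 1.42-fold (0.91-fold to 1.23-fold with the replicate block).

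CMAS, which makes CMP-sialic acid, read 9.51, 9.17 and 9.41 in control and 9.32, 9.29 and 9.51 in siGNE cells. It was lower in pair 1 and higher in pairs 2 and 3. The difference of 0.0090 had a limma interval from -0.33 to 0.35, or 0.80-fold to 1.27-fold, so a fall of the size seen for GNE lies outside it. The other probe sets of NANS and CMAS read between 2.92 and 3.39 on all arrays and stayed under the limit of 4.

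NANP, the phosphatase that releases free sialic acid, differed mainly in pair 1. Control arrays read 8.29, 7.98 and 7.82, and siGNE arrays 7.62, 8.03 and 7.72. The drop was in pair 1, at 63.1% of control, while pairs 2 and 3 stood at 103% and 93.7%. With a mean difference of -0.24 (limma interval from -0.67 to 0.20, adjusted p = 0.633, and 0.369 with the block), the groups overlapped. Pair 1 was also the pair with the lowest GNE level relative to control. SLC35A1, SLC17A5 and NAGK, which were higher, likewise differed most in pair 1. Whether NANP follows the GNE level was not tested. With both arrays of number 1 left out, the NANP difference was -0.025.

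SLC35A1, the Golgi transporter of CMP-sialic acid, was higher in all 3 pairs but not beyond the spread between arrays. It read 9.04, 9.47 and 9.06 in control and 9.60, 9.55 and 9.16 in siGNE cells. Pair 1 differed by 0.56, pairs 2 and 3 by 0.09 and 0.10. The mean difference of 0.25 had a limma interval from -0.21 to 0.70 and an adjusted p of 0.638 (0.260 with the block). Without the arrays of number 1 the difference was 0.091.

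The recycling branch showed its clearest differences in SLC17A5 (sialin), the lysosomal exporter, which was higher in all 3 pairs on both of its probe sets. Probe set 221041_s_at read 6.72, 6.87 and 6.80 in control and 7.41, 7.14 and 7.15 in siGNE cells, so every siGNE value exceeded every control value. Probe set 223441_at read 8.58, 8.80 and 8.25 in control and 9.22, 9.08 and 8.74 in siGNE cells, where the lowest siGNE array overlapped the highest control array. Both put pair 1 highest in the size of the difference (0.69 and 0.64) and pair 2 lowest (0.27 and 0.28). The mean differences were 0.44 (SE 0.13) and 0.47 (SE 0.20), or 1.35-fold and 1.39-fold.

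Neither SLC17A5 probe set passed over all tested probe sets in limma, with adjusted p of 0.213 and 0.355 without the block and 0.0779 and 0.0586 with it. The unadjusted limma p values with the block were 0.0134 and 0.00700, and the intervals there ran from 0.14 to 0.74 and from 0.20 to 0.74. With the replicate number as a random effect both passed as higher, with limma adjusted p of 0.0310 and 0.0372. In that fit 1394 of all 22085 tested probe sets passed as higher. With the block and quantile normalization only 223441_at passed, at 0.0497 (0.314 without the block), against 0.0684 for the other. There 1242 of the 22085 passed as higher. Averaging the 2 probe sets into 1 value for the gene gave a rise of 0.45 (limma adjusted p = 0.172 without the block). With the block the adjusted p was 0.0388, a setting chosen after seeing the data. In it 1537 of 10074 averaged genes passed in either direction. The call therefore rested on how the pairing and the probe sets were handled, while the difference stayed between 0.31 and 0.61 in every setting tried.

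NAGK, the GlcNAc kinase of amino sugar recycling, was also higher in all 3 pairs without passing in any setting. It read 9.75, 9.51 and 9.55 in control and 10.30, 10.04 and 9.67 in siGNE cells. The siGNE arrays of numbers 1 and 2 lay above all controls, and that of number 3 lay below the highest control. Pairs 1 and 2 stood at 146% and 145% of control and pair 3 at 108%. The mean difference of 0.40 had a limma interval from -0.05 to 0.85 (0.08 to 0.71 with the block) and adjusted p of 0.398 and 0.102. It fell to 0.25 without the siGNE array of number 1.

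SIAE, the sialic acid O-acetylesterase, gave probe sets that did not move alike. Probe set 224391_s_at read 7.88, 8.50 and 7.87 in control and 7.89, 7.92 and 7.54 in siGNE cells, level in pair 1 and lower in pairs 2 and 3. Probe set 223744_s_at read 4.47, 5.18 and 6.57 in control and 4.81, 5.20 and 5.47 in siGNE cells. Here the control arrays alone spanned more than 2 log2 units, and the pairs differed by 0.34, 0.02 and -1.10. The mean differences of -0.30 and -0.25 did not pass in limma (adjusted p = 0.622 and 0.906, and 0.213 and 0.608 with the block). The first became -0.091 without the control array of number 2. Averaging all SIAE probe sets, including those near background that were not tested, gave -0.13. Without the control array of number 3 the second became 0.34, so its sign rested on that array. A further pair of SIAE probe sets read between 2.26 and 3.04 throughout.

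NPL and RENBP, the enzymes that turn sialic acid and ManNAc back towards GlcNAc, gave no signal above the limit of 4 in either group. The only RENBP probe set read between 2.14 and 2.18 on the 6 arrays. NPL was highest on 223405_at, with 3.82, 3.81 and 3.50 in control and 3.82, 3.98 and 3.77 in siGNE cells, and its other 3 probe sets read between 2.09 and 2.98. With values this low, a fall or a small rise of either transcript was not detectable, and no array read above 4.

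**Figure D2:**
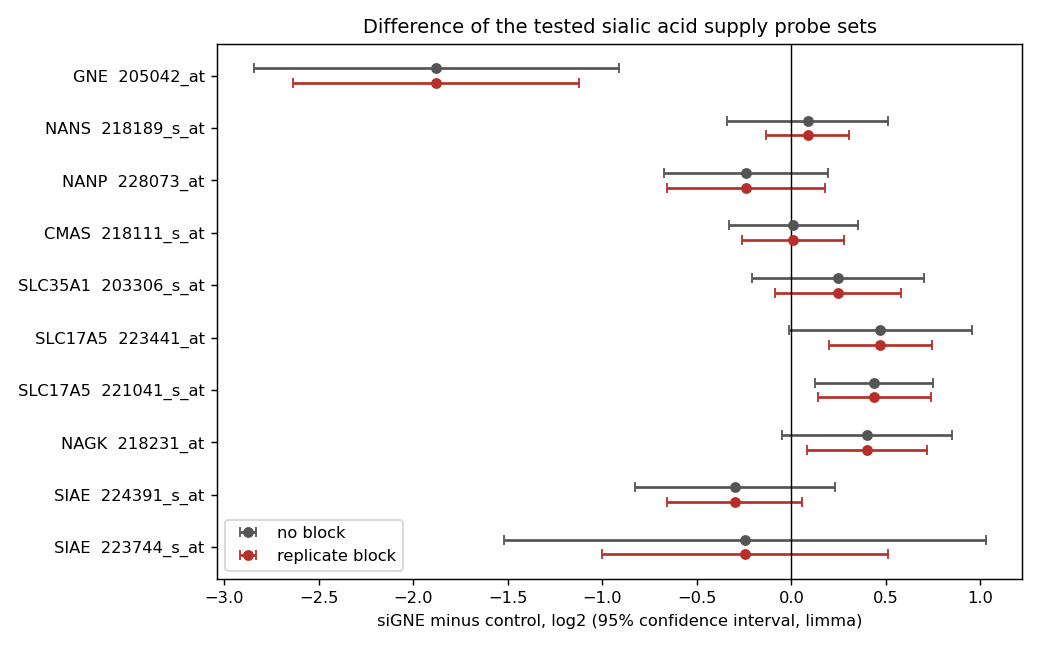
Difference between siGNE and control cells in log2 units (horizontal axis) for each tested probe set, as points with 95% confidence intervals from limma without the block (grey) and with the replicate block (red). The GNE interval lies wholly below 0, from -2.84 to -0.91 without the block, the SLC17A5 and NAGK intervals with the block lie above 0, and those of the other probe sets include 0. These intervals are not adjusted for the number of probe sets tested.

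Counted together, 0 of the 10 tested probe sets passed in limma without the block, against 0.0408% of all tested probe sets, and 2 of 10 had an unadjusted p under 0.05, against 14.6%. With the replicate block 1 of 10 passed, which was GNE, against 9.49% of all tested probe sets (4.13% higher and 5.35% lower), and 4 of 10 had an unadjusted p under 0.05, against 31.6%. Of the 10, 5 were higher in all 3 pairs and 1 lower, where 26.5% and 29.1% of all tested probe sets were. The siGNE values lay wholly above control for 1 probe set (SLC17A5) and wholly below for 1 (GNE), against 8.39% and 12.0% overall. With 1 probe set a gene and GNE left out, the median difference of the remaining 7 genes was 0.085, beside -0.023 over all 10862 tested genes. Of those 7 genes 0 passed in limma with or without the block, and 2 had an unadjusted p under 0.05 with it. Among all tested genes 0.046% passed as higher without the block, and with it 4.14% passed as higher and 6.01% as lower. With so few members, these shares do not stand apart from the background.

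Promoter windows were looked up for SLC17A5 and NAGK, the pair of recycling genes whose tested probe sets were all higher in all 3 pairs, each with an unadjusted limma p below 0.05 once the block was included. Each is the RefSeq sequence from 250 bases before to 50 after an annotated start in GRCh38.p14, read 5′ to 3′ on the gene's strand, and NAGK has 2 such starts. The windows were searched on both strands for CACGTG, the E-box core common in promoters of lysosomal genes, for TGACNNNGC, the antioxidant response element bound by NRF2, and for TGATGNAA, the amino acid response element bound by ATF4. The general promoter elements CCAAT and GGGCGG were searched as well. Capitals mark a match to the first 3.
SLC17A5, chr6:73653943-73654242, minus strand: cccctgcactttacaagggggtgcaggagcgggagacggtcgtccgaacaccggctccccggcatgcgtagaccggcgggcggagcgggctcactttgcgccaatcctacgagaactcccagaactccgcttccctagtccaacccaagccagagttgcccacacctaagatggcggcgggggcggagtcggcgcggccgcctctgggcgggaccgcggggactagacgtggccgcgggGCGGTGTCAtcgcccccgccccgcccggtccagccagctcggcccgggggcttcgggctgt
NAGK, chr2:71068046-71068345, plus strand: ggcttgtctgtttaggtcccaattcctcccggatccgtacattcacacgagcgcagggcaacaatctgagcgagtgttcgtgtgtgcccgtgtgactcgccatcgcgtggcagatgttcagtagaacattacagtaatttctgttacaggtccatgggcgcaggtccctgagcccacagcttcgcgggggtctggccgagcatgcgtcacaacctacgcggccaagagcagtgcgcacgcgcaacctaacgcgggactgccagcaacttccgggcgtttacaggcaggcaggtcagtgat
NAGK, chr2:71068398-71068697, plus strand: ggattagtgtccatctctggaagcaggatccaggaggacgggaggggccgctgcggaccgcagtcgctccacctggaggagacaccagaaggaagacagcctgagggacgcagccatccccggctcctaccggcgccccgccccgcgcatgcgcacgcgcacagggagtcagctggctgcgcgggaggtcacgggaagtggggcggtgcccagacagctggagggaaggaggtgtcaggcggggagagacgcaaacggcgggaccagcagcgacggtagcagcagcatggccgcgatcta
The SLC17A5 window held 1 such match, to the antioxidant response element on the reverse strand, beginning at position -11 from the start and overlapping a GGGCGG match, and the NAGK windows held none. Over all 35116 promoter windows of this length, 13.3% held that element, 7.26% the E-box and 3.62% the amino acid response element. Of the 12 windows of the 10 genes, 4 held the antioxidant element (NANS, NANP, SLC17A5 and RENBP), 1 the E-box (NPL) and 0 the amino acid element. CCAAT was in 5 of the 12 windows and GGGCGG in 9, against 34.6% and 45.0% of all windows. A match describes letters in the window and is not evidence of binding.

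Among the single-gene probe sets with a range of at least 1 log2 unit, 5535 were set against GNE over the 6 arrays, as a description. The closest were RAB23, a small GTPase of membrane traffic (Pearson r = 0.999), CYRIB (0.998), IAH1 (0.998), NSD2, a histone methyltransferase (0.996), and IMPA2, an inositol monophosphatase (0.996). RAB23 read 7.36, 7.61 and 7.25 in control and 5.36, 6.39 and 6.20 in siGNE cells. As with GNE, its siGNE array of number 1 was the lowest and its control array of number 2 the highest. The 5 differences ran from -1.88 (CYRIB) to -0.79 (NSD2). Likeness to GNE over these arrays chose them, so their differences are a description and were not tested. The 6 points fall into 2 groups and share the same arrays.

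Upstream of GNE, in the supply of UDP-GlcNAc, GFPT1 rose. GFPT1, which opens the hexosamine route to UDP-GlcNAc, read 9.42, 9.19 and 9.18 in control and 10.33, 10.31 and 10.14 in siGNE cells on the probe set taken for the list. No siGNE value came near the controls, and the levels differed 2.00-fold (limma adjusted p = 0.0756 without the block and 0.0237 with it). Its other 3 tested probe sets differed by 0.59 to 1.15 and also passed as higher with the block (limma adjusted p from 0.0230 to 0.0370). None of them passed without it (0.0756 to 0.277). Of the 6 genes tested from that list of 9, 5 were higher in all 3 pairs, against 26.2% of all tested genes, the median difference was 0.20 and GFPT1 alone came to pass with the block, where 10.2% of all tested genes did. GNPDA1, a glucosamine phosphate deaminase, stood at 0.49 (limma adjusted p = 0.0503 with the block), and GNPNAT1, the acetyltransferase of the same route, at 0.14.

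Beside SLC17A5 in the lysosome, the sialidase NEU1 and its protective partner CTSA had siGNE values wholly above control, as 8.99% of all tested genes had. NEU1 read 10.14, 9.98 and 10.01 in control and 10.66, 10.16 and 10.42 in siGNE cells, and CTSA read 10.61, 10.64 and 10.49 against 10.90, 10.92 and 10.79. The differences of 0.37 and 0.29 did not pass in limma (adjusted p = 0.0892 and 0.0869 with the block). NEU3, the plasma membrane sialidase, was lower in all 3 pairs by 0.45 on average, which did not pass either (limma adjusted p = 0.0972 with the block). These were the only genes of that list of 6 tested, so 0 of 3 passed in limma in either fit, while unadjusted p lay under 0.05 for 2 without and all 3 with the block. Over all tested genes those shares were 16.5% and 32.8%. CASD1, which adds the O-acetyl groups that SIAE removes, differed by 0.011 (limma adjusted p = 0.988).

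The sialyltransferases, which use the CMP-sialic acid, had 9 tested genes of 20 listed and 0 that passed in limma, with 1 at an unadjusted p under 0.05 without the block and 3 with it, against 16.5% and 32.8% of all tested genes. Their median difference was -0.26, but -0.13 with the probe sets of a gene averaged and 0.0045 with no filter on low values. In all 3 pairs 4 were lower and 1 higher, where 31.4% and 26.2% of all tested genes were. ST6GALNAC4 (-0.45), ST6GAL1 (-0.26) and ST3GAL3 (-0.42) had siGNE values wholly below control, as 14.2% of all tested genes had. ST3GAL3 read from 3.56 to 4.53, close to background.

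Among transporters of the SLC35 family other than SLC35A1, 2 of 13 tested genes passed as lower with the replicate block, where 6.01% of all tested genes did. None passed in limma without the block, where 5 had an unadjusted p under 0.05, against 16.5% of all tested genes. With the block 7 had, against 32.8%. In all 3 pairs 8 were higher and 5 lower, against 26.2% and 31.4% of all tested genes, and the median was 0.07. SLC35E3 read 9.08, 9.02 and 8.64 in control and 7.65, 8.21 and 7.61 in siGNE cells, a difference of -1.09 (limma adjusted p = 0.0284 with the block and 0.119 without). SLC35B4, a carrier of UDP-xylose and UDP-GlcNAc, differed by -0.55 (limma adjusted p = 0.0458 with the block and 0.133 without). Its other 2 probe sets differed by -1.10 and -0.70 (limma adjusted p = 0.0893 and 0.0298 with the block, and 0.202 and 0.556 without). SLC35E1 was higher by 0.40 on its listed probe set (limma adjusted p = 0.0543 with the block). Of its other 5 tested probe sets 1 passed as higher with the block, at 0.46 (limma adjusted p = 0.0472, and 0.536 without). In the list 3 genes had siGNE values wholly below control and 2 wholly above, against 14.2% and 8.99% of all tested genes. SLC35D1 (-0.51) was among the former and the UDP-galactose carrier SLC35A2 (0.32) among the latter. Neither passed (limma adjusted p = 0.120 and 0.0783 with the block). On the other tested probe set of each, the groups overlapped (-0.59 for SLC35D1 and 0.27 for SLC35A2). Of 4 proteins reported to bind GNE, only ACTN1 was tested, at -0.05 (limma adjusted p = 0.960).

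**Figure D3:**
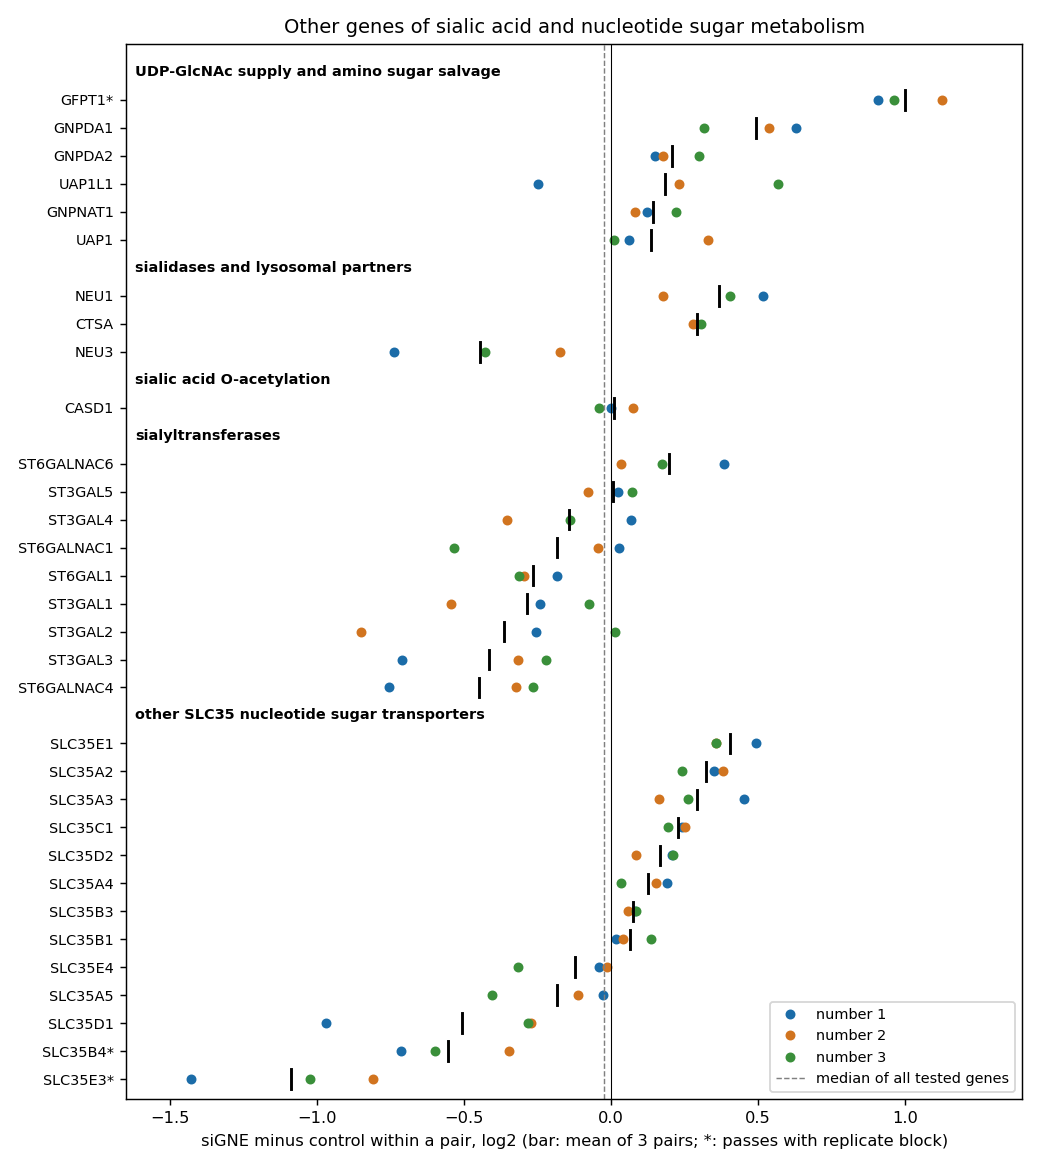
Differences between siGNE and control cells within each pair (points, coloured by array number) and their mean (bar) in log2 units for the tested genes of 5 lists around the sialic acid supply, with 1 probe set a gene. The dashed line is the median of all tested genes at -0.023, and stars mark GFPT1, SLC35B4 and SLC35E3, which passed with the replicate block.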

How the data were processed

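For 6 Affymetrix arrays, the authors deposited log2 expression of 54675 probe sets made with GCRMA, per the submitters' processing notes. Not given in the sources used here are its version and chip definition, and the range of the values shows the log2 scale. Arrays have no read depth, so their number limits the precision. Per the labels' protocols, biotinylated cRNA came from 300 ng of total RNA.

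Names came from GEO's platform annotation, updated by gene identifier through a RefSeq gene table (41043 of 41097 probe sets with 1 symbol matched; 1801 had several and 11777 none). The test was limma (version 3.58.1, R 4.3.3; lmFit, eBayes) of siGNE minus control over 22085 probe sets with a mean above 4, without 62 control probe sets, with Benjamini-Hochberg adjustment over all of them. A call needed an adjusted p under 0.05. The script was tested on simulated data.

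The replicate block took V1 to V3 as a factor. The pairing rests on the titles and on same-number correlations of 0.58, 0.71 and 0.83, all above the limit of 0.1, against -0.64 to 0.17 between numbers. Residual degrees of freedom were 4 without and 2 with the block. For lists, each gene was given by its probe set of highest mean, passing over _x_at and _s_at sets where another existed. Named are all 10 genes, and of each list those called in either fit and the 2 others with the smallest unadjusted p. NEU1, ST3GAL3, SLC35E1 and the markers KRT19, COL1A1, CEACAM5 and MUC1 fall outside this rule and were chosen after their values were seen. The 5 probe sets most like GNE were those of highest Pearson r over the 6 arrays. Members and lists were chosen with earlier results of these data known. Exact permutation tests used scipy 1.17.1. Alternatives covered filters, a floor, normalization, variance priors, array weights, pairing, probe set averaging, the threshold and left-out arrays.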

Additional observations from a re-analysis of the deposited data

How the results depend on the processing

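The GNE difference stayed between -2.17 and -1.44 in every setting and passed the threshold in 4 of them: -1.88 with the replicate block, with the block as a random effect and with averaged probe sets and the block, and -1.86 with the block and quantile normalization. With 1 array, or both arrays of a number, left out, the GNE difference ran from -2.17 to -1.44, 0 of these genes' probe sets passed and 0 of all probe sets passed in limma, where 2023 to 5529 had an unadjusted p under 0.05 (fewer arrays leave fewer degrees of freedom). The count of these genes' probe sets called was 1 with the replicate block, 2 with the block and quantile normalization, 2 with averaged probe sets and the block (added after seeing the data) and 3 with the random effect. It was 0 under all other settings: the filter, floor, normalization, variance, weight and threshold alternatives, and averaging without the block. Signs changed for NANS, CMAS and SIAE 223744_s_at. NANS stood at -0.012 with averaged probe sets, with or without the block, and at -0.046 to 0.202 with an array left out. That average joined 218189_s_at (0.085) with 241923_x_at (-0.11), which read near background and was not tested. CMAS ran from -0.086 to 0.084 with an array left out. It was -0.044 and -0.038 with the replicate block and the arrays of number 2 or 3 left out. SIAE 223744_s_at ran from -0.71 to 0.34 with an array left out. It was 0.18 with the block and the arrays of number 3 left out. Why signs changed with arrays left out was not tested. Over all probe sets, 9 calls became 2095 with the replicate block, 2646 with the block and quantile normalization, 1537 with averaged probe sets and the block, 3449 with the random effect, 0 with the block and no filter (7167 at an unadjusted p under 0.05), 3 with no filter, 35 with a mean above 6, 20 with quantile normalization, 49 with a variance trend, 65 with averaged probe sets, 276 with array weights and 219 at an adjusted p under 0.1. The UDP-GlcNAc list had 1 call with the block or averaged probe sets, and the SLC35 list 2 with the block, against 0 without. The permutation tests of GNE cannot go below 0.1 (arrays) or 0.25 (pairs), whatever the setting. Signals near background limit NPL, RENBP, the second probe sets of NANS and CMAS, and the SIAE probe sets that were not tested.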
